A study of Cricetulus griseus with 40 samples.

Results

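Genes of G2 phase and mitosis other than kinesin genes were followed in CHO-S cells, an established Chinese hamster ovary line kept in suspension and widely used as a host for recombinant protein production. They came from a list of 56 symbols given by name. Of these, 54 matched an NCBI gene ID of the Chinese hamster, out of 26793 gene IDs in the files, and each stood on 1 line per library. Bub1b and Birc5 could not be matched and were not analysed here. All 54 matched genes were among the 12259 genes kept for testing, which reached at least 1 FPKM (fragments scaled to transcript length and library size) in at least 4 libraries. Cenpe was listed among the kinetochore genes although its protein is itself a kinesin motor.

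CHO-S cells were grown in shake flasks as a batch culture, and RNA was sampled at intervals of 12 h, the earliest 72 h and the latest 180 h after seeding. There were 4 libraries per time, 10 times and 40 libraries in all. Every group shared the same line, the same chemically defined medium with added glutamine, anti-clumping agent and antibiotics, and the same incubator settings, and no treatment or engineered change was named. By the labels, the groups differed in time in culture alone. The labels do not say which library came from which culture, so p-values reflect how much 4 libraries taken at 1 time vary, which may be technical in part.

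Entry into mitosis is driven by cyclin-dependent kinase 1, whose cyclin partners build up before mitosis and are destroyed during mitosis. Condensin packs the replicated chromosomes, kinetochores attach them to spindle microtubules, and the spindle checkpoint holds the anaphase-promoting complex back until every chromosome is attached. Separase then cuts the cohesin rings, and the central spindle and a contractile ring divide the cell. Many of these genes are transcribed mainly in late S phase, G2 and mitosis, and their RNA is low in cells that have left the cycle. The roles given here are known mostly from human, mouse, frog, fly and yeast cells.

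Summed FPKM ranged from 463991.9 to 575241.3 over the libraries (median 531047.1), and 10904 to 11537 genes reached 1 FPKM; read depth is unknown. The mesenchymal markers Vim (472 to 874 FPKM) and Fn1 (105 to 318 FPKM) were present in every library. The epithelial markers Epcam and Cdh1 stayed at or below 0.071 FPKM, the leukocyte markers Ptprc and Cd3e and the follicle marker Fshr were listed at 0, and Pecam1 lay between 0.24 and 1.17 FPKM. Col1a1, the other mesenchymal marker, reached at most 0.0288 FPKM. The leukocyte marker Itgam reached at most 0.102 FPKM, and Cdh5, like Pecam1 an endothelial marker, 0.0603 FPKM. The follicle marker Amh reached at most 0.408 FPKM, and the follicle markers Foxl2 and Cyp19a1 were not found. At 84 h replicate 4, and at 96 h replicate 1, stood apart from the other libraries of their times, with scores of -2.38 and -2.65 on the axis along which libraries of the same time differed most. Values at 84 h and 96 h are therefore also given without these 2 libraries where the text turns on them. The lowest library of each time from 108 h to 180 h scored from -1.40 to -1.03 on the same axis. Leaving out the 2 libraries therefore does not remove this difference between libraries.

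All 54 genes were lower at 180 h than at 72 h. The 4 libraries of 72 h gave 0.859, 0.900, 0.793 and 0.855% of their FPKM to the 54 genes together, and those of 180 h gave 0.127, 0.125, 0.152 and 0.162%. The groups lay far apart, and the mean share went from 0.852 ± 0.0439% to 0.141 ± 0.0183% (SD, n = 4). Every one of the 54 passed the test, against 33.5% of all genes called lower, with limma and a Benjamini-Hochberg adjusted p below 0.05. The largest adjusted p among them was 0.00524. Their median log2 change was -2.40 on the log2(FPKM + 1) scale, against -0.10 over all genes tested. Single changes ran from -3.28 for Mki67 to -1.03 for Bub3. In all 54 the highest library of 180 h lay below the lowest of 72 h, a separation shown by 30.8% of all genes. Mean FPKM fell to below 50% of the 72 h value in all 54, against 8.34% of all genes. In RNA from whole cultures, fewer cells in G2 and mitosis cannot be told apart from less of each RNA per cell.

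**Figure D1:**
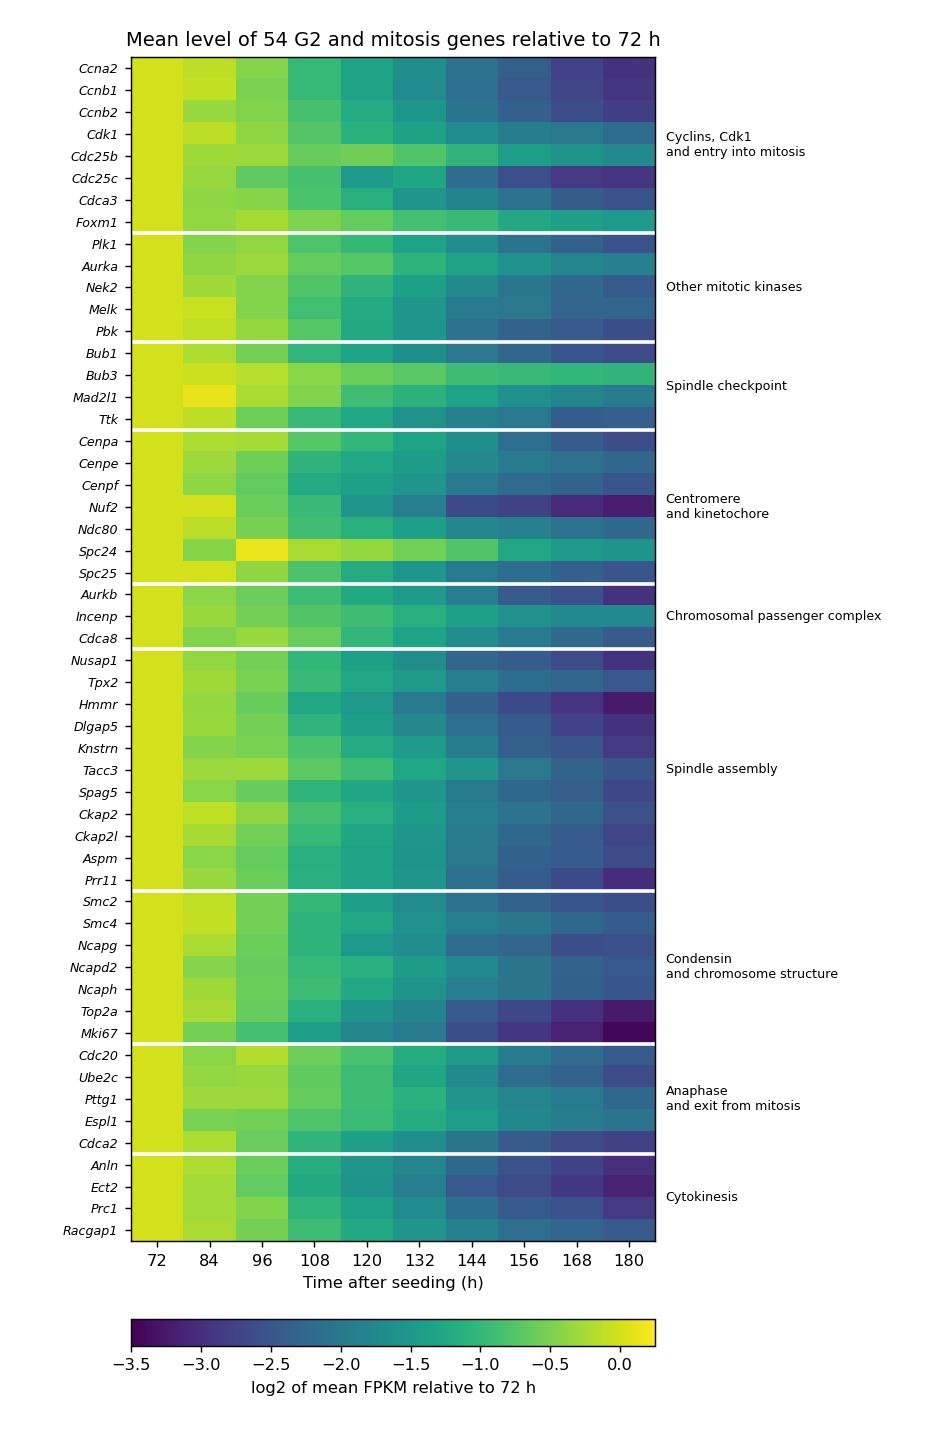
Mean FPKM of each of the 54 genes at 10 times, as log2 relative to its own mean at 72 h (colour), grouped by function; 4 libraries per time. Nearly every row darkens from left to right, with Bub3, Foxm1, Spc24 and Cdc25b staying lightest; Mad2l1 at 84 h and Spc24 at 96 h stand out above their 72 h means.

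Among cyclins, Cdk1 and genes of entry into mitosis, 8 of 8 fell (median -2.33). Ccnb1 encodes cyclin B1, the main partner of Cdk1 in mitosis. Its level was 146, 162, 138 and 131 FPKM at 72 h, 65.4, 69.7, 78.3 and 77.3 FPKM at 108 h, and 18.1, 15.8, 20.5 and 20.8 FPKM at 180 h. The 3 times did not overlap, and the log2 change at 180 h was -2.88 ± 0.12 (SE; limma adjusted p = 6.57e-20). Ccna2, which encodes cyclin A2, active in S and G2 phase, had 193, 210.1, 173 and 161 FPKM at 72 h and 19.4, 20.3, 25.1 and 30.2 FPKM at 180 h. It had the largest fall of the class, -2.92 ± 0.16 (limma adjusted p = 2.28e-16), with no overlap. Cdk1, the kinase itself, had 375, 391, 315 and 302 FPKM at 72 h and 67.1, 71.8, 78 and 90.05 FPKM at 180 h. The 180 h libraries lay well below all 4 of 72 h (-2.16 ± 0.13), and Cdk1 ended at 22.2% of its 72 h mean, against 13.1% for Ccnb1 and 12.9% for Ccna2. Ccnb2, for the other B-type cyclin listed, fell by 2.76 ± 0.10, and Cdca3, an adaptor that promotes loss of the Cdk1 inhibitor Wee1, by 2.50 ± 0.10.

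Foxm1, a transcription factor that drives many G2 and mitosis genes, had the smallest fall of that class. Its level was 32.8, 32.1, 48.0 and 45.7 FPKM at 72 h, 31.0, 31.3, 31.6 and 20.1 FPKM at 108 h, and 17.7, 14.0, 15.0 and 10.9 FPKM at 180 h. Libraries of 72 h and 180 h did not overlap (-1.40 ± 0.24, limma adjusted p = 9.56e-06), but those of 72 h varied among themselves, and the lowest of 72 h lay just above the highest of 108 h. Foxm1 kept 36.2% of its 72 h mean. The phosphatases that switch Cdk1 on differed: Cdc25b fell by 1.62 ± 0.15 and kept 30.8%, and Cdc25c fell by 1.99 ± 0.14 and kept 13.0%. Cdc25c was a low gene (5.97 FPKM at 72 h, 0.777 FPKM at 180 h), so the added 1 FPKM understates its change.

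**Figure D2:**
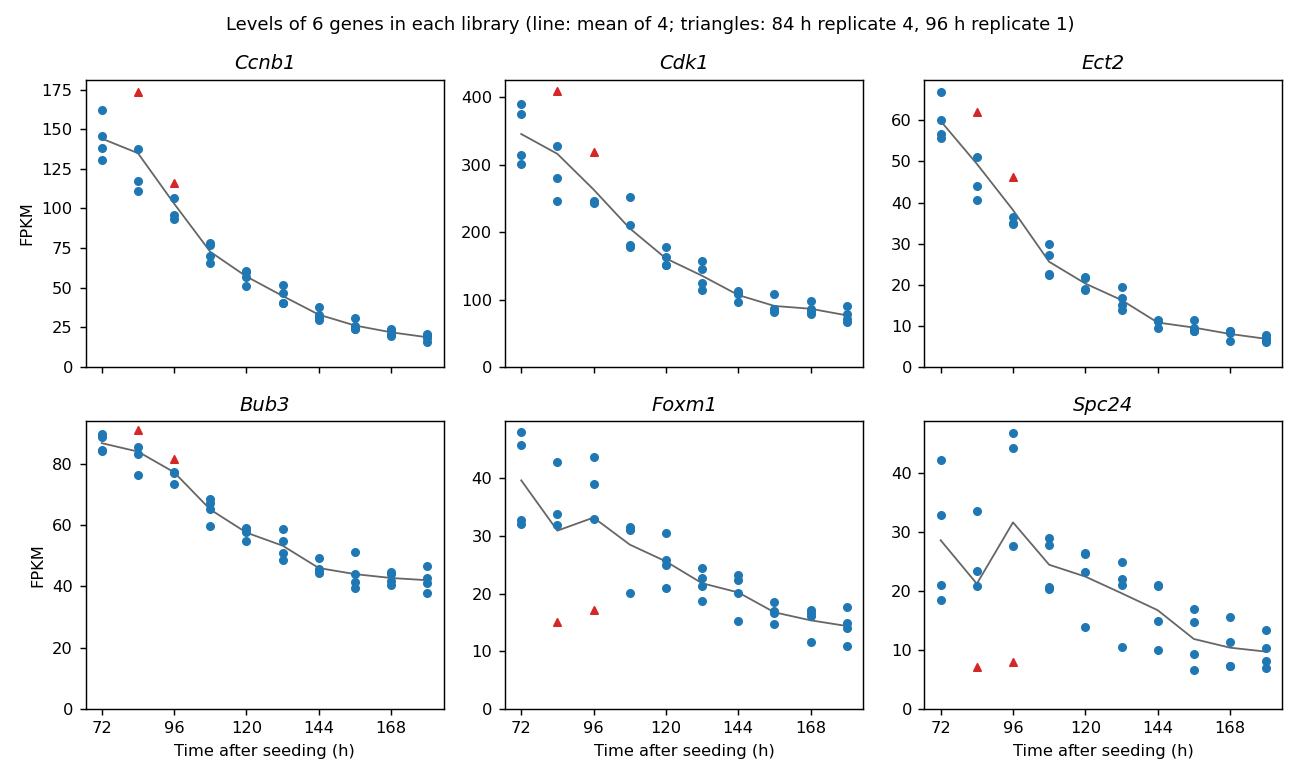
FPKM of Ccnb1, Cdk1, Ect2, Bub3, Foxm1 and Spc24 in each library (points) against time after seeding, with the mean of 4 as a line; triangles are the libraries that stood apart, replicate 4 (84 h) and replicate 1 (96 h). The triangles lie highest of their time for Ccnb1, Cdk1, Ect2 and Bub3 and lowest for Foxm1 and Spc24.

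Of the other mitotic kinases, 5 of 5 fell (median -2.37). Pbk, a kinase of mitotic cells, went from 61.9, 63.1, 53.6 and 51.0 FPKM at 72 h to 8.13, 8.52, 10.7 and 10.4 FPKM at 180 h (-2.49 ± 0.15, limma adjusted p = 7.19e-16), with no overlap. Aurka, the centrosome and spindle kinase Aurora A, had the smallest fall of the class. It was 45.5, 46.4, 51.8 and 52.2 FPKM at 72 h and 14.8, 11.8, 13.8 and 13.1 FPKM at 180 h (-1.80 ± 0.15). Both sets were tight and did not overlap. Plk1, which acts in centrosome maturation and mitotic exit, fell by 2.46 ± 0.20, Nek2, a centrosome kinase, by 2.37 ± 0.08, and Melk, a kinase abundant in dividing cells, by 2.04 ± 0.12.

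All 4 spindle checkpoint genes fell (median -2.04), and this class held the smallest change of the 54. Bub1, a checkpoint kinase at kinetochores, had 35.8, 37.7, 32.9 and 34.9 FPKM at 72 h and 4.99, 4.60, 5.68 and 7.61 FPKM at 180 h (-2.45 ± 0.14, limma adjusted p = 7.19e-16). The late libraries lay at a small fraction of the early ones. Bub3, the partner that carries Bub1 and BubR1 to kinetochores, had 88.7, 89.9, 84.3 and 84.5 FPKM at 72 h and 41.0, 38.0, 42.6 and 46.5 FPKM at 180 h (-1.03 ± 0.07, limma adjusted p = 4.18e-14). Both sets were narrow and did not overlap, and Bub3 kept 48.4% of its 72 h mean, against 16.2% for Bub1. Ttk, the checkpoint kinase Mps1, fell by 2.18 ± 0.15 and Mad2l1, which inhibits Cdc20, by 1.90 ± 0.16.

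Centromere and kinetochore genes fell in 7 of 7 (median -2.35). Nuf2, a subunit of the Ndc80 complex that binds microtubules, was 17.4, 16.4, 16.7 and 13.4 FPKM at 72 h and 1.03, 1.5, 2.14 and 2.25 FPKM at 180 h (-2.66 ± 0.17, limma adjusted p = 7.23e-15). The last values lie close to the added 1 FPKM. Spc24, another subunit of the same complex, behaved less evenly, with 18.4, 21.0, 42.2 and 32.9 FPKM at 72 h, 27.8, 29.0, 20.3 and 20.7 FPKM at 108 h and 13.4, 10.4, 8.11 and 6.91 FPKM at 180 h (-1.43 ± 0.42, limma adjusted p = 0.00524). The 72 h and 180 h libraries did not overlap, whereas those of 108 h lay within the range of 72 h. Ndc80 itself fell by 2.10 ± 0.14 and Spc25, the partner of Spc24, by 2.41 ± 0.15. Cenpa, the histone H3 variant that marks centromeres, fell by 2.49 ± 0.12, Cenpf, an outer kinetochore protein, by 2.35 ± 0.16, and Cenpe, the motor that carries chromosomes to the spindle equator, by 2.14 ± 0.16.

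The chromosomal passenger complex corrects faulty attachments and later acts at the cleavage site, and its 3 measured genes fell by unlike amounts. Aurkb, its kinase, had 34.3, 31.4, 34.9 and 32.7 FPKM at 72 h and 4.20, 3.22, 3.82 and 5.96 FPKM at 180 h (-2.72 ± 0.12, limma adjusted p = 6.62e-19). Incenp, its scaffold, had 25.2, 25.6, 29.1 and 30.0 FPKM at 72 h and 9.01, 7.45, 8.40 and 8.64 FPKM at 180 h (-1.60 ± 0.09, limma adjusted p = 3.47e-16). Neither gene overlapped between the times. Aurkb was the higher of the 2 in every library of 72 h and the lower in every library of 180 h. Cdca8, which encodes the subunit borealin, lay between them at -2.31 ± 0.16.

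Spindle assembly genes fell in 11 of 11 (median -2.58), in a narrow band from -2.89 to -2.38. Hmmr, a spindle pole and microtubule-binding protein, was 31.0, 35, 28.0 and 26.7 FPKM at 72 h and 2.80, 2.65, 3.38 and 4.01 FPKM at 180 h (-2.89 ± 0.16, limma adjusted p = 1.31e-16). Aspm, which keeps microtubules focused at spindle poles, was 24.9, 26.7, 24.1 and 25.9 FPKM at 72 h and 3.57, 3.37, 4.57 and 4.85 FPKM at 180 h (-2.38 ± 0.13). The 72 h and 180 h libraries of both genes were widely separated. Nusap1 (-2.88 ± 0.15), Dlgap5 (-2.86 ± 0.14) and Tpx2 (-2.46 ± 0.14), whose proteins bundle or nucleate spindle microtubules, lay in the same band. So did Knstrn (-2.74 ± 0.12) and Spag5 (-2.58 ± 0.08), which encode partners at the spindle and kinetochore, and Tacc3 (-2.40 ± 0.10), a microtubule cross-linker. Ckap2, Ckap2l and Prr11 fell by 2.49 ± 0.13, 2.45 ± 0.11 and 2.84 ± 0.13.

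Condensin and chromosome structure genes fell in 7 of 7 (median -2.39) and held the steepest falls of the 54. Mki67, whose protein coats mitotic chromosomes, had 69.7, 72.5, 67.7 and 85.8 FPKM at 72 h, 26.5, 21.0, 31.6 and 32.2 FPKM at 108 h and 5.33, 5.37, 8.37 and 8.31 FPKM at 180 h. The 3 times were clearly separate, and 9.26% of the 72 h mean was left at 180 h. Top2a, which untangles sister chromatids, had 252, 272, 225 and 241 FPKM at 72 h, 98.0, 94.3, 117 and 144 FPKM at 108 h and 22, 20.9, 30.2 and 32.7 FPKM at 180 h, and kept 10.7%. The 5 condensin genes were much alike. Smc4, an ATPase subunit shared by both condensins, had 90.3, 91.4, 80.2 and 84.2 FPKM at 72 h and 12.9, 14.5, 17.6 and 20.9 FPKM at 180 h (-2.34 ± 0.16). Its partner Smc2 fell by 2.50 ± 0.17, and the condensin I subunits Ncapg, Ncapd2 and Ncaph by 2.39 ± 0.15, 2.38 ± 0.13 and 2.39 ± 0.11.

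Genes of anaphase and exit from mitosis fell in 5 of 5 (median -2.37). Ube2c, the ubiquitin-conjugating enzyme of the anaphase-promoting complex, had 291, 326, 335 and 303 FPKM at 72 h and 54.2, 43.1, 54.8 and 51.4 FPKM at 180 h (-2.61 ± 0.14, limma adjusted p = 8.24e-17). It stayed among the more abundant of the 54. Espl1, which encodes separase, had 13.2, 13.6, 18.4 and 20.5 FPKM at 72 h and 4.08, 3.49, 4.35 and 3.92 FPKM at 180 h (-1.79 ± 0.18, limma adjusted p = 7.48e-10). The 72 h libraries were spread, but all lay above those of 180 h. Pttg1, which encodes securin, the inhibitor of separase, fell by 2.19 ± 0.10. Cdc20, the activator of the complex in anaphase, fell by 2.37 ± 0.21, and Cdca2, which brings phosphatase to anaphase chromosomes, by 2.40 ± 0.11.

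All 4 cytokinesis genes fell, and their median of -2.88 was the lowest of the 9 classes. Ect2, the exchange factor that switches on RhoA at the cell equator, had 60.1, 66.8, 55.8 and 56.6 FPKM at 72 h, 22.5, 22.6, 27.3 and 30.0 FPKM at 108 h and 6.47, 6.21, 7.07 and 7.71 FPKM at 180 h. Each time lay below the one before without overlap (-2.95 ± 0.12 at 180 h, limma adjusted p = 1.15e-19). Racgap1, the centralspindlin subunit that recruits Ect2, had 93.5, 107, 87.5 and 88.4 FPKM at 72 h and 15.0, 15.1, 18.8 and 20.3 FPKM at 180 h (-2.38 ± 0.12). It did not overlap either, and kept 18.4% of its 72 h mean, against 11.5% for Ect2. Anln, a scaffold of the contractile ring, fell by 2.92 ± 0.13 and Prc1, which bundles the central spindle, by 2.84 ± 0.14.

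The fall was spread over the whole batch. All 54 genes differed among the 10 times by limma's F test, as 49.9% of all genes did, with a largest adjusted p of 0.0139. Mean FPKM was lower than at the time before in all 9 steps for 37 genes and in 8 of them for 17; without the 2 libraries that stood apart it was so in 9 steps for 39 genes, in 8 for 14 and in 7 for 1. The median gene held 82.0% of its 72 h mean at 84 h, 69.6% at 96 h and 53.0% at 108 h. The values at 84 h and 96 h were 80.6 and 67.9% without the 2 libraries. By 120, 132 and 144 h it held 42.6, 34.7 and 26.8%. The last values were 22.6% at 156 h, 19.5% at 168 h and 17.0% at 180 h.

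Class medians fell along close but not equal courses. At 84, 108, 144 and 180 h cytokinesis genes held a median of 84.2, 46.5, 21.9 and 13.1% of the 72 h mean. Condensin and chromosome genes held 84.5, 48.2, 23.2 and 16.7% at these times, and spindle assembly genes 79.3, 49.3, 25.5 and 15.2%. These 3 classes were the only ones below 50% at 108 h by their median. Kinetochore genes held 86.7, 53.5, 29.5 and 17.7%, and the cyclins with the other entry genes 80.9, 56.5, 26.3 and 15.7%. Entry genes were above the kinetochore genes at 108 h and below them at 144 h and 180 h. Exit genes held 77.7% at 84 h and 79.9% at 96 h, and then 62.9% at 108 h and 34.3% at 144 h. With the 2 libraries that stood apart left out, exit genes held 84.2% at 84 h and 81.8% at 96 h, so the order of these 2 times turned round. At 84 h the medians without them were 76.1% for cytokinesis, 79.8% for condensin and chromosome, 74.8% for spindle assembly, 83.2% for kinetochore and 81.1% for entry genes.

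The order of abundance, on the FPKM scale, changed less than the levels. At 72 h Cdk1 was the most abundant of the 54 (346 ± 43.8 FPKM), followed by Ube2c (314 ± 20.3 FPKM) and Top2a (247 ± 19.98 FPKM). At 180 h Cdk1 (76.7 ± 9.95 FPKM) and Ube2c (50.9 ± 5.40 FPKM) still led, and Bub3 (42.1 ± 3.57 FPKM) came next, ahead of Pttg1 (28.1 ± 2.83 FPKM) and Top2a (26.4 ± 5.91 FPKM). The values of Pttg1 and Top2a did not differ beyond their spread. Cdc25c was the least abundant at both times, followed by Nuf2.

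In windows of 36 h, 51 of 54 passed as lower from 72 h to 108 h (11.2% of all genes), 51 of 54 from 108 h to 144 h (12.7% of all genes) and 35 of 54 from 144 h to 180 h (0.914% of all genes). Median log2 changes were -0.89, -0.91 and -0.62, against 0.01, -0.06 and -0.05 over all genes. The genes that did not pass from 72 h to 108 h were Foxm1 (-0.46, limma adjusted p = 0.184), Spc24 (-0.16, adjusted p = 0.828) and Cdc20 (-0.57, adjusted p = 0.0587). From 108 h to 144 h they were Foxm1 (-0.47, adjusted p = 0.192), Spc24 (-0.56, adjusted p = 0.418) and Cdc25b (-0.40, adjusted p = 0.067), again by limma. All 11 spindle assembly and all 4 cytokinesis genes passed in each window. Counts in the last window depended on how libraries were weighted. Without the 2 libraries that stood apart 44 of 54 passed, and 185 of all 12259 genes were called lower. With array weights 52 of 54 passed, all but Nuf2 and Bub3, and 706 of all genes were called lower. Differences between classes were not tested. Of the 7 kinetochore genes 1 passed, Cenpa (-0.92), against 4 without the 2 libraries and 6 with array weights. Of 7 condensin and chromosome genes 4 passed, Top2a, Mki67, Ncapd2 and Ncaph, while Smc2 (-0.46), Smc4 (-0.49) and Ncapg (-0.39) did not. Among entry genes 5 of 8 passed, the others being Cdk1, Cdc25c and Foxm1. Among other kinases 2 of 5 passed, Plk1 and Nek2, but not Aurka, Melk or Pbk. Bub3 and Ttk did not pass among the 4 checkpoint genes, nor did Incenp among the 3 passenger genes or Espl1 among the 5 exit genes. The kinetochore genes Cenpe, Cenpf, Nuf2, Ndc80, Spc24 and Spc25 did not pass. The other classes without the 2 libraries had 6 of 8 entry genes, 4 of 5 other kinases, 2 of 4 checkpoint genes, 3 of 3 passenger genes, 5 of 7 condensin and chromosome genes and 5 of 5 exit genes past the test. The smallest late change was that of Bub3 (-0.13).

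Single steps of 12 h were near the limit of the test. From 72 h to 84 h 3 genes passed as lower, Cdca3, Knstrn and Spag5, against 0.571% of all genes. From 96 h to 108 h 1 gene did, Spag5, against 0.0245% of all genes. In the other 7 steps limma called 0 of the 54. All genes called lower came to 0.286% from 84 h to 96 h, to 0.00816% in each of the steps from 108 h to 120 h, from 120 h to 132 h and from 168 h to 180 h, and to 0% in the steps between 132 h and 168 h. At an unadjusted p below 0.05, 29, 21, 43, 32, 28, 43, 21, 9 and 11 of the 54 were lower in the 9 steps in order. The share of all genes at this threshold is not given, so these counts have no background. The median steps were -0.29, -0.22, -0.39, -0.28, -0.28, -0.36, -0.26, -0.18 and -0.17. Without the 2 libraries that stood apart, the medians of the steps they enter were -0.31, -0.21 and -0.36. With or without them the medians were lowest from 96 h to 108 h and from 132 h to 144 h, and nearest 0 in the last 2 steps. Differences between steps were not tested. Without them 11 step calls were made in place of 4: Cenpf, Prr11, Mki67, Spag5, Aspm and Cenpe from 72 h to 84 h, and Nek2, Ncapd2, Ube2c, Aurka and Spag5 from 96 h to 108 h. Cdca3 and Knstrn were not among them. Shares of all genes called in these steps without the 2 libraries are not given.

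The change from 144 h to 180 h minus that from 72 h to 108 h was positive, a smaller late fall, in 42 of 54 genes. The median was 0.28, against -0.05 over all genes, and the share of all genes with a positive value is not given. For low genes the added 1 FPKM shrinks the late fall more than the early one, which raises this value. The contrast passed as higher in 2 of 54, against 1.21% of all genes, namely Melk (0.58 ± 0.17, limma adjusted p = 0.0476) and Ect2 (0.61 ± 0.17, limma adjusted p = 0.0421). Melk held 20.4, 20.5, 20.2 and 18.9 FPKM at 72 h, 9.35, 9.47, 10.5 and 14.0 at 108 h, 5.88, 4.59, 5.18 and 4.98 at 144 h and 3.83, 3.52, 4.04 and 5.16 at 180 h. Its libraries of 144 h and 180 h overlapped, whereas those of 72 h and 108 h did not. Neither gene passed with a pseudocount of 0.1 (limma adjusted p = 0.0814 and 0.0759) or with no filter on low genes (0.0676 and 0.0635), and array weights gave 32 genes higher and 3 lower. Without the 2 libraries that stood apart 7 genes passed, Melk, Cenpe, Cenpf, Incenp, Aspm, Ncapg and Ect2. For this contrast the shares of all genes under array weights and without the 2 libraries are not given, so these counts have no background. All 7 condensin and chromosome genes and all 4 cytokinesis genes had a positive value (medians 0.53 and 0.38), whereas 3 of 5 exit genes and 2 of 3 passenger genes had a negative one. Limma called 0 of the 54 lower in this contrast, against 2.06% of all genes, and 0 of the 12 negative values had an unadjusted p below 0.05.

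A contrast with the midpoint of the 72 h and 180 h means asked whether most of the log2 fall had been made by a given time. The middle of the sampled span lies between 120 h and 132 h. An even log2 fall would therefore lie above the midpoint at 120 h and below it at 132 h. The side alone does not tell an early fall from an even one. At 120 h limma called 0 of the 54 below the midpoint (0.302% of all genes) and 0 above it (0.693% of all genes). At an unadjusted p below 0.05, 6 lay above it, Ccnb2, Nek2, Cenpa, Tacc3, Ube2c and Pttg1, and 0 below. At 132 h 4 genes lay below it (2.37% of all genes), Melk (-0.40), Cdca2 (-0.32), Ncaph (-0.31) and Incenp (-0.27), and 28 did at an unadjusted p below 0.05. Limma called 0 above it (1.89% of all genes), also 0 unadjusted. Without the 2 libraries that stood apart 15 lay below it, among them 4 of 7 condensin and chromosome genes, 3 of 4 cytokinesis genes and 3 of 4 checkpoint genes. Shares of all genes for that setting and at the unadjusted threshold are not given, so these counts have no background.

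The order of the fall was described by the time at which mean FPKM, interpolated on the log2 scale, dropped below 50% of the 72 h mean. The median gene reached it at 111.0 ± 5.00 h, where the SD is over 4 series of same-numbered libraries, an arbitrary grouping. On the axis along which libraries of the same time differed most, replicates 1 and 4 changed sign at every step. The SD holds those swings. By class, cytokinesis genes came first at 105.7 ± 5.52 h, followed by condensin and chromosome genes at 106.8 ± 4.91 h and spindle assembly genes at 107.5 ± 5.91 h. Kinetochore genes came at 113.3 ± 6.53 h and entry genes with the cyclins at 114.3 ± 4.58 h. Other kinases followed at 117.4 ± 3.13 h, checkpoint genes at 118.1 ± 9.32 h, passenger genes at 119.3 ± 6.53 h and exit genes at 122.7 ± 8.12 h. The 4 series of the first class ran from 100.3 to 111.9 h and those of the last from 105.2 to 123.5 h. The first 3 classes came, with the libraries that stood apart left out, at 105.2, 106.1 and 107.3 h, and the medians of the other classes did not move. The ranges of the series overlap, so neighbours in this order did not differ beyond their spread, and the order was given no test.

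Single genes were spread more widely than classes. Mki67 was first at 98.8 h, followed by Hmmr at 103.2 h, Ect2 at 103.3 h and Cenpf at 103.6 h. These times were 96.3, 101.9, 102.3 and 101.4 h without the 2 libraries that stood apart, so the order of the last 3 is not fixed. The cyclin genes Ccna2 and Ccnb1 reached 50% at 108.3 and 108.4 h, Ccnb2 at 113.6 h and Cdk1 at 116.6 h. Bub3 was last at 161.7 h, after Spc24 at 149.5 h, Foxm1 at 145.2 h, Cdc25b at 141.8 h and Aurka at 129.7 h. For Foxm1 the 4 series ran from 79.5 to 170.3 h and for Spc24 from 77.4 to 154.2 h, so their place is poorly fixed, whereas for Bub3 they ran from 143.0 to 167.2 h. Classes also hid unlike members. In the checkpoint class Bub1 came at 107.2 h and Bub3 at 161.7 h, in the kinetochore class Cenpf at 103.6 h and Spc24 at 149.5 h, and in the exit class Cdca2 at 106.9 h and Cdc20 at 125.8 h. Of the 7 condensin and chromosome genes, 6 lay between 105.0 and 110.9 h.

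**Figure D3:**
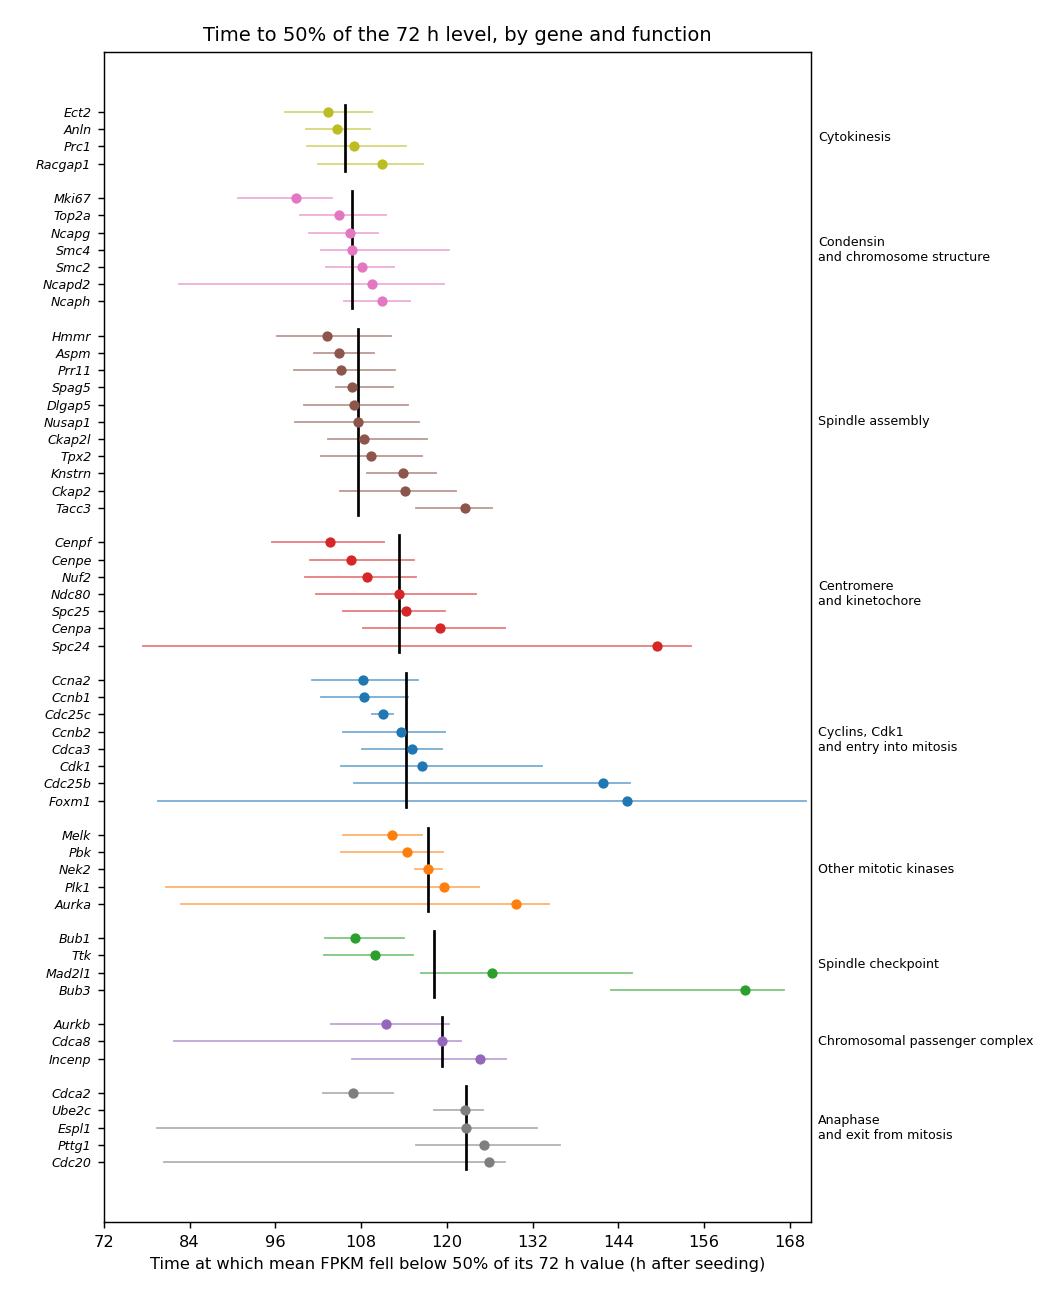
Time at which the mean FPKM of each gene fell below 50% of its 72 h mean (points), with the range over 4 series of same-numbered libraries (thin lines) and the class median (black bars), classes in order. Class medians run from 105.7 h for cytokinesis to 122.7 h for exit from mitosis, and thin lines overlap between all classes.

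A measure that takes the size of the fall into account gave a similar but not the same order. By 108 h the median gene had made 36.7% of its log2 fall, with a range from 11.2% for Spc24 to 49.5% for Cenpf. Class medians were 40.5% for condensin and chromosome genes, 40.3% for checkpoint genes, 38.9% for cytokinesis genes and 38.3% for spindle assembly genes. They were 34.0% for kinetochore genes, 33.9% for entry genes, 32.2% for other kinases, 32.2% for passenger genes and 29.0% for exit genes. Checkpoint genes held a late place by the first measure and an early one by this, with Bub3, the latest gene to reach 50%, at 39.8% of its own log2 fall by 108 h. At 180 h the classes kept between 13.1% (cytokinesis) and 22.5% (checkpoint) of the 72 h mean.

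Levels also differed between libraries of 1 time. In replicate 4 of 84 h Top2a was 288 FPKM against 163 to 209 in the other 3, and Cdk1 was 409 FPKM against 247 to 328. The same library was lowest of its time for Foxm1 (15.1 FPKM against 31.9 to 42.8), Spc24 (7.06 against 20.8 to 33.6), Aurka (24.1 against 42.3 to 42.6) and Cdc20 (40.7 against 79.0 to 94.0). Replicate 1 of 96 h showed both features too, with Smc4 at 80.9 FPKM against 46.9 to 56.1 and Spc24 at 8.01 FPKM against 27.5 to 46.8. The axis shared by libraries of the same time held 52.4% of the variance within times over all genes. Per SD of its score, the 54 genes moved by a median of -0.11 on the log2 scale, from -0.19 for Smc2 to 0.49 for Spc24, with 38 negative and 16 positive. The sign of the axis is arbitrary and was set so that the mean of these genes fell as the score rose. That more slopes were negative is therefore not a result. Slopes of all genes are not given, so the split has no background.

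The side a gene took on this axis went with its place in the order. The 16 genes with a positive slope reached 50% at a median of 122.6 h and the 38 with a negative slope at 108.4 h. Of the 14 latest genes 11 had a positive slope, and Bub3, Mad2l1 and Pttg1 had a negative one. Classes differed in this too. Slopes were positive in 0 of 4 cytokinesis, 1 of 7 condensin and chromosome and 2 of 11 spindle assembly genes, the 3 earliest classes. They were positive in 1 of 7 kinetochore, 3 of 8 entry, 3 of 5 other kinase, 0 of 4 checkpoint, 3 of 3 passenger and 3 of 5 exit genes. Across the 54 genes Spearman's rho between slope and time to 50% was 0.75, and 0.76 without the 2 libraries that stood apart. This is a description only, since all genes share the same 40 libraries and genes are not independent replicates. The part of this axis in the order of the fall was not tested.

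**Figure D4:**
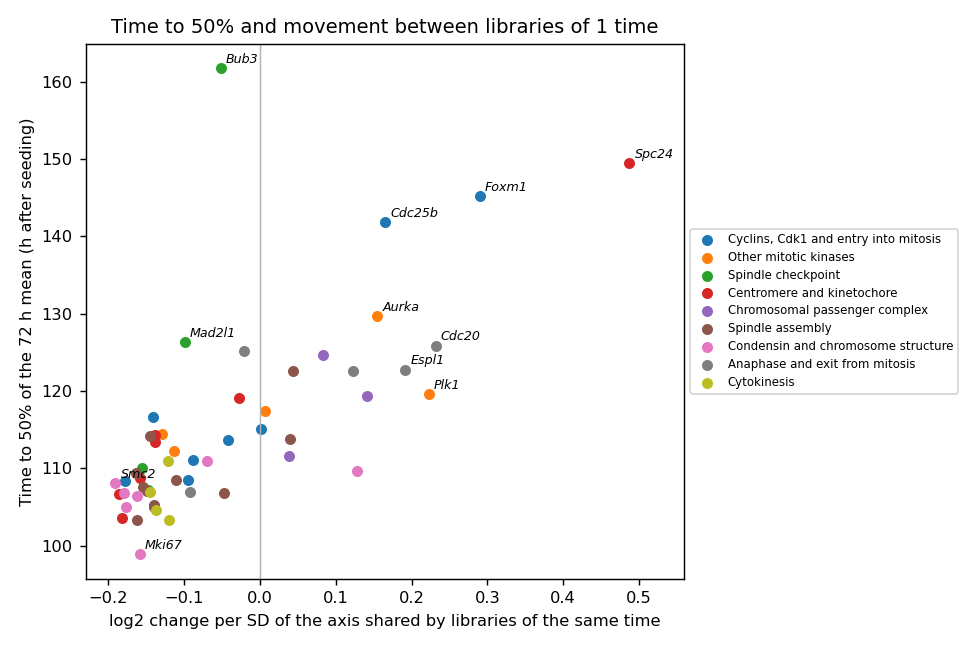
Time to 50% of the 72 h mean (h after seeding) against the log2 change per SD of the axis along which libraries of the same time differed, 1 point per gene, coloured by function. Genes with negative slopes cluster near 108.4 h, and Spc24, Foxm1 and Cdc25b lie to the upper right.

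Partners in 1 complex were compared as the log2 ratio of their FPKM + 1 within each library, in 7 pairs at 180 h and at 108 h against 72 h. With 4 against 4 libraries the smallest p of an exact two-sided permutation test is 0.0286, which 7 of the 14 tests reached, and their adjusted p of 0.0571 did not pass. The ratio of Ccnb1 to Cdk1 went from -1.25 ± 0.08 at 72 h to -1.48 ± 0.15 at 108 h and -1.97 ± 0.14 at 180 h (SD, n = 4), with no overlap with 72 h at either time. That of Aurkb to Incenp went from 0.27 ± 0.13 at 72 h to 0.12 ± 0.11 at 108 h, which overlapped, and to -0.84 ± 0.25 at 180 h, which did not. Ect2 to Racgap1 went from -0.64 ± 0.02 to -0.92 ± 0.05 at 108 h and -1.21 ± 0.10 at 180 h, without overlap. Tpx2, which activates Aurora A, went from 1.55 ± 0.25 relative to Aurka to 0.90 ± 0.29 at 180 h, also without overlap. Ncapg to Smc2, both of condensin, moved by 0.11 at 180 h, and by 0.02 with 0.1 FPKM added in place of 1 (exact permutation p = 0.543). Ndc80 to Spc24 (-0.67, exact permutation p = 0.171) and Pttg1 to Espl1 (-0.39, exact permutation p = 0.2) overlapped between 72 h and 180 h.

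Other genes of the same processes were taken from 7 lists of 92 symbols, of which 89 matched and passed the filter and Kntc1, Cks1b and E2f5 did not match. At 180 h limma called 67 of 89 lower and 2 higher, against 33.5 and 15.8% of all genes, with a median log2 change of -1.05. All 11 cohesin genes were lower (median -1.09), led by Sgo2, which protects centromeric cohesin (-2.29 ± 0.15). Of 23 genes of the inner kinetochore and the Knl1-Mis12 network 22 were lower (median -1.69), led by Zwint, a partner of Knl1 (from 17.2 ± 0.865 to 2.27 ± 0.796 FPKM; -2.51 ± 0.15). All 3 condensin II genes were lower, with Ncapg2 at -2.02 ± 0.08, and 4 of 6 further checkpoint genes, with Zwilch at -2.40 ± 0.16. Inhibitors and switches of Cdk1 were lower in 7 of 10, with the Cdk subunit Cks2 at -1.76 ± 0.17.

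The anaphase-promoting complex differed from the 54 in its counts. Of all genes, 33.5% were called lower and 15.8% higher at 180 h, and a difference from these shares was not tested. Of 16 genes for subunits, activators and the inhibitor of the complex, 8 were lower, 1 was higher and 7 did not pass, with a median of -0.35. Those 7 were Anapc2, Anapc5, Anapc7, Anapc11, Anapc13, Anapc15 and Fzr1. Not passing does not mean unchanged. At 72 h Anapc11 (0.63, limma adjusted p = 0.354) held 10.3 to 24.4 FPKM and Fzr1 (-0.28, adjusted p = 0.698) 6.80 to 18.1 FPKM. Anapc7 (-0.09, adjusted p = 0.421) varied less, from 21.8 to 23.8 FPKM. The inhibitor of the complex, Fbxo5, also called Emi1, fell by 2.28 ± 0.15. Anapc10, a subunit that helps bind substrates, rose from 34.9, 33.5, 31.6 and 25.6 FPKM at 72 h to 72.7, 87.7, 75.0 and 94.5 FPKM at 180 h (1.37 ± 0.15, limma adjusted p = 3.10e-09), with no overlap. Regulators of G2 and mitosis transcription were lower in 12 of 20 and higher in 1 (median -0.58). Those that did not pass included E2f1 (-0.54), E2f3 (-0.15) and E2f4 (-0.11). At 72 h E2f1 ranged from 12.4 to 21.7 FPKM and E2f4 from 25.6 to 42.6 FPKM, against 12.7 to 13.5 FPKM for E2f3. The repressor E2f8 had the largest fall, -2.07 ± 0.09. Lin37, a subunit of the DREAM complex, which represses cell cycle genes, was the other gene called higher (0.74 ± 0.29, limma adjusted p = 0.0343). It was low, at 1.81, 1.67, 3.31 and 2.39 FPKM at 72 h and 5.62, 5.55, 4.83 and 2.39 FPKM at 180 h, and replicate 4 of 180 h lay inside the 72 h range.

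**Figure D5:**
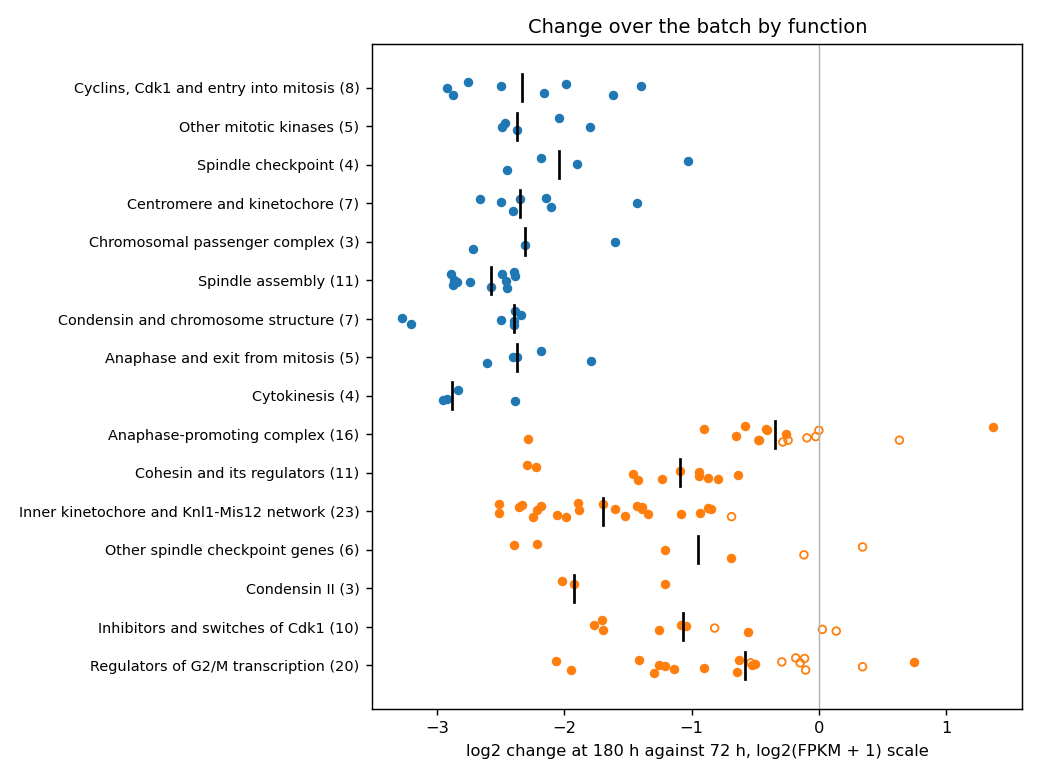
Log2 change at 180 h against 72 h of each gene, on the log2(FPKM + 1) scale, by function: the 54 genes in blue and 89 other genes of the same processes in orange, filled where the limma adjusted p was below 0.05; black bars are medians. Blue points lie between -3.28 and -1.03, and the anaphase-promoting complex spans from -2.28 to 1.37.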

How the data were processed

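RNA of CHO-S cells was measured in 40 stranded messenger RNA libraries. The authors deposited FPKM per NCBI gene ID, 1 file per library. The submitters' processing notes name Cufflinks 2.2.1, Trimmomatic 0.32, SAMtools 1.0 and FastQC. Not given in the sources used here were the aligner, genome build, annotation and strand setting. FPKM of lines with the same ID were summed, 23 lines without an ID held 0, and 23196 IDs matched a reference table of CriGri-PICRH-1.0, used for names alone. FPKM are shares of a library, with no counts, so absolute amounts per cell are unknown.

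The 12259 genes that reached 1 FPKM in 4 or more libraries were fitted on the log2(FPKM + 1) scale (limma 3.58.1, R 4.3.3), with a mean per time over all 40 libraries, a variance trend and robust moderation (30 residual degrees of freedom), and Benjamini-Hochberg adjustment over all genes. The script was tested on simulated data. Log2 changes understate the change of low genes. Times to 50%, shares and ratios were computed in Python 3.11.15, and exact permutation tests with scipy 1.17.1. Genes with values in each library are Mki67, Top2a, Foxm1, Ccnb1, Cdk1 and, per class, the largest and smallest fall. Other genes given library by library were chosen after their values were seen. The members, classes, lists and tests were chosen with earlier results of these data known. Same-numbered libraries did not deviate alike at all times (correlations from -0.78 to 0.77 over 180 pairs of times, median 0.01, 60 above 0.1). Replicates 1 and 4 changed sign at every time step on the axis shared by libraries of the same time. Replicate 4 had the lowest score at 84, 108, 132, 156 and 180 h. Replicate 1 had it at 96, 120, 144 and 168 h. Deviation thus followed number in an alternating way, and numbers were not used to pair libraries in the main fit. Alternatives were another pseudocount, other filters, median-ratio scaling, no variance trend, array weights, the largest line per ID, a fit of 72 h and 180 h alone, a replicate block, omission of each library and of the 2 libraries that stood apart. Promoter motifs and sequences were not analysed here.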

Additional observations from a re-analysis of the deposited data

Results flagged for a closer look

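Within the groups of 4 libraries of a time, 1 library lay apart by Dixon's criterion in 14 of 328 groups examined, and chance flags about 1 in 20 groups. Replicate 1 of 96 h was high for Cdk1 (318 FPKM against 244 to 247 in the other 3), Ect2 (46.3 against 34.7 to 36.6) and Melk (17.0 against 13.7 to 14.2). Replicate 4 of 84 h was low for Aurka (24.1 against 42.3 to 42.6). These are the 2 libraries that stood apart on the axis shared by libraries of the same time.

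The other libraries belonged to other times. Of these, replicate 4 of 108, 156 and 180 h had the lowest score of its time on that axis (-1.31, -1.11 and -1.25). The remaining flagged libraries did not. Replicate 4 was low for Foxm1 at 108 h (20.1 FPKM against 31.0 to 31.6) and for Nek2 at 72 h (93.1 against 95.9 to 96.2), and high for Cdk1 at 156 h (109 against 82.0 to 86.2). At 180 h replicate 4 was high for Cdc25c (1.27 against 0.599 to 0.631), Spc25 (14.8 against 11.5 to 12.0) and Zwilch (5.33 against 3.83 to 4.05), and replicate 3 was high for Cdca8 (8.30 against 6.96 to 7.04). Replicate 2 was low for Ect2 at 144 h (9.51 against 11.1 to 11.4), for Spag5 at 120 h (23.4 against 26.3 to 26.8) and for E2f8 at 180 h (2.39 against 2.79 to 2.86). The cause was not tested.

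The change from 144 h to 180 h differed from that from 72 h to 108 h, by limma's contrast of the differences, for Melk (0.58) and Ect2 (0.61), which fell less in the late window. Both calls lie near the threshold and depend on the processing.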

How the results depend on the processing

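The fall from 72 h to 180 h passed for 54 of 54 genes under each of the 10 other settings and in each omission of 1 library, and the test over 10 times under each of the 9 settings that keep all times. Each of the first 2 windows gave 50 to 52 genes when 1 library was left out. For the 21 members with values in each library, direction and call at 180 h against 72 h were kept in 378 of 378 alternative values. Many of these settings leave the fitted change itself as it was, so direction could not turn there. The median change of the 54 was -2.56 with a pseudocount of 0.1 and -2.47 with array weights. Median-ratio scaling moved the median of all genes from -0.10 to 0.01 and that of the 54 from -2.40 to -2.28. The last window ranged from 26 to 38 genes when 1 library was left out. It gave 44 without the 2 libraries that stood apart and 52 with array weights. In these 2 settings 185 and 706 of all 12259 genes were called lower. The 67 other genes called lower ranged from 66 to 68 when 1 library was left out. The median time to 50% ranged from 108.7 to 112.5 h.

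Counts near the threshold moved, and the cause was not tested. For the step, late-fall and midpoint counts below, the shares of all genes that passed under each other setting are not given. The 4 step calls became 1 with a pseudocount of 0.1, 1 with no filter, 2 without trend and robust moderation, 163 with array weights, 11 without the 2 libraries that stood apart, and 1 to 21 when 1 library was left out (21 without replicate 1 of 96 h). The 2 genes with a smaller late fall became 0 with a pseudocount of 0.1, 0 with no filter, 32 with array weights (with 3 lower), 7 without the 2 libraries and 0 to 4 when 1 was left out. The 4 genes below the midpoint at 132 h became 1, 1, 29 and 15 under the same 4 settings, 2 with median-ratio scaling and 0 to 8 when 1 was left out; at 120 h array weights gave 1 in place of 0. A replicate block gave 15 step calls, 7 midpoint calls at 132 h and 36 genes in the last window. Such a block assumes that same-numbered libraries deviate alike, which they did not at all times. Pairs passed in 0 tests with 1 library left out, where the smallest exact permutation p is 0.0571, so that says nothing of stability.

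Depth is unknown, so no counting error can be given for low genes such as Nuf2 and Cdc25c. Reads shared between similar genes could not be told apart, and 2 of 56 listed genes were not measured. FPKM are relative, and cell number, viability and cell cycle phase were not analysed here.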
